A study of Homo sapiens with 12 samples.

Results

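The genes described here encode the conjugating enzymes and the extraction machinery of degradation from the endoplasmic reticulum (ER), known as ERAD, together with 1 membrane ligase. They were taken by symbol from the count table, which holds 28278 genes, and all 9 were present: VCP, UFD1, NPLOC4, FAF2, UBE2J1, UBE2G2, AUP1, NGLY1 and RNF139. Expression was measured by bulk RNA sequencing in pancreatic alpha cells made from HUES-8 human embryonic stem cells, an established line. A group of 6 samples received 5 uM tunicamycin, an antibiotic that blocks N-glycan assembly, so that misfolded protein collects in the ER. The 6 samples it was set against received the solvent DMSO, and both groups were kept for 48 h in 30 mL bioreactors stirred at 40 rpm. Samples numbered 1 to 3 in each group form sequencing batch 1 and those numbered 4 to 6 form batch 2. The comparison asks how ER stress changes gene expression in these cells.

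ERAD removes misfolded proteins from the ER by passing them through its membrane to the cytosol for destruction. On the way out, a ubiquitin-conjugating enzyme (E2) and a membrane ubiquitin ligase (E3) attach ubiquitin to the protein, and the ATPase VCP, also called p97, pulls it free with the help of the adaptor pair UFD1 and NPLOC4. The extracted protein is stripped of its glycans by NGLY1, shuttled to the proteasome and degraded. In secretory cells such as alpha cells, which make glucagon in the ER, this route disposes of hormone precursors and other cargo that fail to fold.

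Total counts per sample lay between 17523442 and 28872269, and the 9 genes had between 627 counts (NGLY1) and 10388 counts (VCP) in a sample. As a check of the treatment, HSPA5, the ER chaperone BiP, averaged 5270 ± 1022 CPM (counts scaled to a common library size) with tunicamycin and 845 ± 144 CPM with DMSO (SD, n = 6 each), and all 9 reference genes of the unfolded protein response were called higher. All 10 alpha cell markers were detected in every sample, with a summed level of 59148 to 95068 CPM with tunicamycin and 79776 to 118793 CPM with DMSO. Most of that sum came from 2 of them. GCG averaged 56820 CPM with tunicamycin and 74634 CPM with DMSO, and TTR 19791 and 21515 CPM. GCG was higher with tunicamycin in 0 of 6 same-numbered pairs, at a log2 fold change of -0.39 and an edgeR adjusted p of 0.176. TTR was higher in 3 of 6. Markers of other cells varied more. Delta, PP and epsilon markers, 4 of 4, summed to 1437 to 2913 CPM with tunicamycin and 989 to 5248 CPM with DMSO. SST alone had 1413 to 2874 CPM with tunicamycin and 957 to 5210 CPM with DMSO. Of the 4, 0 were called lower with batch in the model and 1 with the sample number as a replicate block. Mesenchymal markers, 10 of 10 detected in all samples, summed to 95.5 to 635 CPM with tunicamycin and 174 to 1536 CPM with DMSO, and heart muscle markers, 7 of 8, to 6.17 to 842 CPM with tunicamycin and 5.18 to 1707 CPM with DMSO. Of the mesenchymal markers 0 were called lower with batch in the model, at a median log2 fold change of -1.26. With the sample number as a replicate block 8 of the 10 were called lower, as were 8.4% of all genes. Of the heart muscle markers 0 were called in either fit. Ductal and acinar markers, 8 of 8, summed to 145 to 318 CPM with tunicamycin and 378 to 544 CPM with DMSO, and 5 of the 8 were called lower. Liver and gut markers, 6 of 6, summed to 182 to 300 CPM with tunicamycin and 325 to 439 CPM with DMSO, with 4 of 6 called lower. The groups' sums did not overlap for either list. Beta cell markers, 7 of 8, summed to 238 to 469 CPM with tunicamycin and 330 to 745 CPM with DMSO, with 5 of the 7 tested called lower. Of the alpha cell markers 1 was called lower: CRYBA2, a crystallin gene named after its values were seen, at a log2 fold change of -1.80 and an edgeR adjusted p of 7.6e-05. The part of these other cells in the changes below was not tested beyond the values given. In bulk RNA, fewer cells of a type and less RNA per cell cannot be told apart. The labels call the samples biological replicates without saying whether each had its own differentiation, so the p-values speak only of the spread among these 12.

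Of the 9 genes, 1 was called higher with tunicamycin (UBE2J1) and 0 were called lower, at an adjusted p under 0.05 in the quasi-likelihood test of edgeR, with batch in the model. Among all 17137 genes tested, 4.56% were called higher and 3.29% lower, 7.84% in either direction. Samples numbered 1 to 3 deviated together with their same-numbered partners. For numbers 4 and 5 another number correlated higher than the partner did, with group and batch means subtracted. With the number as a replicate block 3 of the 9 genes were called higher (UBE2J1, VCP and FAF2) and 0 lower. In that fit 8.92% of all genes were called higher and 8.4% lower. The median log2 fold change of the 9 genes was 0.04, and that of all genes tested was -0.01. DESeq2 and limma-voom also called 0 of the 9 lower. At an unadjusted edgeR p under 0.05, 3 of the 9 were higher and 0 lower. At least 2686 of the 17137 genes passed that cut in either direction. Log2 fold changes are tunicamycin over DMSO, with standard error and 95% interval.

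Promoter sequence is shown for VCP and for the E2 pair UBE2J1 and UBE2G2, because a motif of the unfolded protein response is present in the first 2 and absent from the window of the third. The motif UPRE, spelled TGACGTGG, is known as a site bound by the stress factors XBP1 and ATF6. RefSeq promoter windows (GRCh38.p14, 250 bases before to 50 after a transcription start) were available for 7 of the 9 genes. UFD1 and RNF139 had none. The windows of NPLOC4, at 81577384 to 81577683 and 81566553 to 81566852, lie inside the gene. Its outermost 5′ end in GENCODE release 29, at 81648465, was not covered. Each stretch below is positions -250 to -151 of the window, 5′ to 3′ on the gene's strand, with the motif in capitals.
VCP, chr9:35072776-35072875, minus strand: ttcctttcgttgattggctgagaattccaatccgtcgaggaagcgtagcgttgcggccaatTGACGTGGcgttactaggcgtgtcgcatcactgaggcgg
UBE2J1, chr6:89352873-89352972, minus strand: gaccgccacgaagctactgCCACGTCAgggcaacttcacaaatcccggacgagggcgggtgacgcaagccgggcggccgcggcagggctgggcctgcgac
UBE2G2, chr21:44801971-44802070, minus strand: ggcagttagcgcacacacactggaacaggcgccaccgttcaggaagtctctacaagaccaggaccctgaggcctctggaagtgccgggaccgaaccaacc
In VCP the motif lay at positions -189 to -182 on the gene's own strand, directly after a CCAAT sequence. In UBE2J1 it lay at -231 to -224 on the opposite strand and so reads CCACGTCA. The VCP stretch falls inside the outermost gene boundaries that GENCODE release 29 gives for VCP, whereas the UBE2J1 stretch lies upstream of the gene.

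The UPRE was found, on either strand, in 2 of the 7 genes with a window, where NPLOC4 counts by its inner windows alone. It occurred in 0.729% of all 35116 windows and in 1.15% of the 12834 tested genes that had one. The related motifs ERSE (CCAAT, any 9 bases, then CCACG), ERSE-II (ATTGG, any 1 base, then CCACG, so that it holds a reversed CCAAT) and CARE (TGATGNAA) were found in 0 of the 7 genes. Among all windows ERSE occurred in 0.0769%, ERSE-II in 0.0541% and CARE in 3.62%. Of 12 genes with a window in the HRD1 complex and ERAD lectin list, 0 held the UPRE, and HERPUD1 held both an ERSE-II and a CARE. A match describes the letters of a window and is not evidence of binding.

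The conjugating enzymes separated. UBE2J1 (chromosome 6, 89326625 to 89352848, minus strand) is a tail-anchored E2 of the ER membrane that works with the ligase HRD1. UBE2J1 ranged from 161 to 210 CPM with tunicamycin, with a median of 175 CPM, and from 95.8 to 134 CPM with DMSO, with a median of 110 CPM. Every tunicamycin sample lay above every DMSO sample, as was the case for 2.47% of all genes tested, and for 1.3% every tunicamycin sample lay below. UBE2J1 averaged 179 ± 18.6 CPM with tunicamycin and 111 ± 13.2 CPM with DMSO (SD, n = 6 each). It rose 1.61-fold, a log2 fold change of 0.69 ± 0.09 (SE; interval 0.50 to 0.88), with an edgeR adjusted p of 0.00027, rank 144 of all genes by p. The log2 fold change was 0.64 in batch 1 and 0.75 in batch 2. With 3 samples a group, batch 1 alone gave an adjusted p of 0.243 and batch 2 alone 0.00655.

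UBE2G2 (chromosome 21, 44768580 to 44802019, minus strand), a soluble E2 that the cell brings to the ER membrane through AUP1, gave another picture. UBE2G2 ranged from 103 to 108 CPM with tunicamycin, with a median of 106 CPM, and from 91.4 to 109 CPM with DMSO, with a median of 104 CPM. The tunicamycin values fell inside the DMSO range. Its log2 fold change was 0.04 ± 0.07 (interval -0.11 to 0.19), with an edgeR adjusted p of 0.796. Levels of UBE2G2 hardly varied among treated samples: the coefficient of variation was 1.49% with tunicamycin, where counting error alone gives 2.08%, and 6.00% with DMSO.

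The difference between the E2s was tested directly as the log2 ratio of UBE2J1 to UBE2G2 in each sample. The ratio was 0.76 ± 0.15 with tunicamycin and 0.11 ± 0.15 with DMSO (SD, n = 6 each). The samples of the groups did not overlap, with ratios of 0.59 to 0.99 with tunicamycin and -0.12 to 0.30 with DMSO. The difference of 0.64 had p = 0.005 in a two-sided exact permutation test within batches, the smallest p that its 400 arrangements allow, and 0.0125 adjusted over the 5 ratios tested. It was 0.64 in batch 1 and 0.65 in batch 2, and positive in 6 of 6 same-numbered pairs. With signs flipped over those pairs, the exact test gave p = 0.0312, the smallest it allows, and 0.0521 adjusted, which misses the threshold of 0.05.

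**Figure D1:**
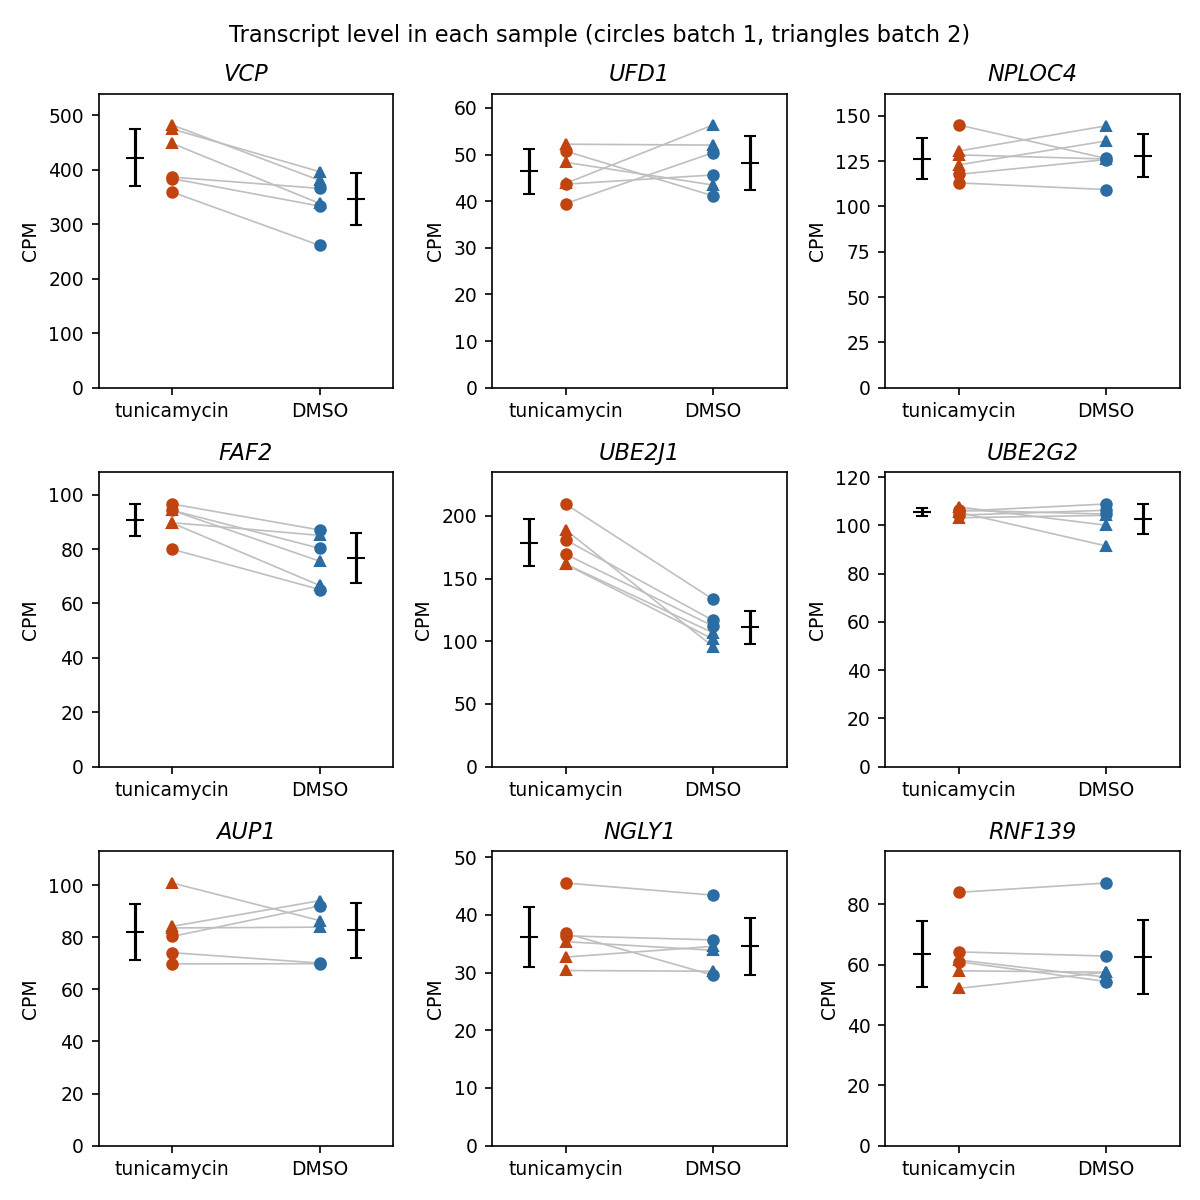
Transcript level of each of the 9 genes in CPM (vertical axis, from 0) in the 6 tunicamycin and 6 DMSO samples; circles are batch 1, triangles batch 2, grey lines join samples of the same number, and black bars are mean and SD. UBE2J1 is the panel in which the groups do not overlap, with the lowest tunicamycin sample at 161 CPM and the highest DMSO sample at 134 CPM.

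The panels of levels by sample show the number pairs as well as the groups. The pair numbered 2 was the highest of its group for UBE2J1, FAF2, NGLY1 and RNF139 in both groups, with UBE2J1 at 210 CPM in tunicamycin 2 and 134 CPM in DMSO 2. The same samples had the highest summed alpha cell markers and the lowest summed mesenchymal and heart muscle markers of their groups. With the mean mesenchymal marker level as a covariate, the log2 fold change of UBE2J1 was 0.61 and its edgeR adjusted p 0.00299. VCP then had 0.26 (edgeR adjusted p = 0.245) and FAF2 0.19 (edgeR adjusted p = 0.404). The change was 0.73 without DMSO 2 and 0.66 without tunicamycin 2.

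The list of ubiquitin-conjugating enzymes held 35 genes, all tested, of which 1 was called higher (UBE2J1) and 1 lower (UBE2N), with a median log2 fold change of -0.09. UBE2N, the E2 that builds non-degradative ubiquitin chains with a catalytically inactive partner, averaged 77.6 ± 5.89 CPM with tunicamycin and 102 ± 11.5 CPM with DMSO. Its log2 fold change was -0.39 ± 0.09, with an edgeR adjusted p of 0.0216. That call was lost without tunicamycin 4, tunicamycin 5 or DMSO 1, with the mesenchymal marker covariate and in either batch alone. With the replicate block 3 conjugating enzymes were called lower. UBE2J2, the other tail-anchored E2 of the ER and named after its values were seen, averaged 65.5 ± 4.97 CPM with tunicamycin and 74.2 ± 10.2 CPM with DMSO, a log2 fold change of -0.18 ± 0.09 and an edgeR adjusted p of 0.268.

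Among the extraction genes, VCP and FAF2 had positive log2 fold changes that were called with the replicate block, and UFD1 and NPLOC4 were not called. VCP (chromosome 9, 35056064 to 35073249, minus strand), the ATPase that pulls ubiquitylated protein out of the membrane, ranged from 359 to 482 CPM with tunicamycin, with a median of 418 CPM. With DMSO it ranged from 261 to 397 CPM, with a median of 352 CPM. The groups overlapped: 3 tunicamycin samples, all of batch 2, lay above the highest DMSO sample. Within same-numbered pairs the tunicamycin sample was the higher in 6 of 6.

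VCP averaged 423 ± 52.5 CPM with tunicamycin and 346 ± 48.1 CPM with DMSO (SD, n = 6 each), a log2 fold change of 0.28 ± 0.10 (interval 0.08 to 0.49). Its edgeR adjusted p was 0.0938 with batch as a covariate and 0.0254 with the replicate block, where the log2 fold change was 0.29. Without the block, DESeq2 gave an adjusted p of 0.0415, and leaving out DMSO 2 gave 0.0466 in edgeR. The other 19 of 22 alternatives did not call VCP, among them the fit with no batch term (edgeR adjusted p = 0.203). Batch 1 had a log2 fold change of 0.24 (edgeR adjusted p = 0.832) and batch 2 one of 0.33 (edgeR adjusted p = 0.153).

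UFD1 (chromosome 22, 19449910 to 19479215, minus strand) and NPLOC4 (chromosome 17, 81556887 to 81648465, minus strand) form the heterodimer through which VCP binds ubiquitin chains at the ER. UFD1 ranged from 39.5 to 52.2 CPM with tunicamycin, median 46.1 CPM, and from 41.1 to 56.3 CPM with DMSO, median 48.0 CPM. NPLOC4 ranged from 113 to 145 CPM with tunicamycin, median 126 CPM, and from 109 to 144 CPM with DMSO, median 126 CPM. For both genes the groups overlapped widely, and 3 of 6 pairs were higher with tunicamycin. The log2 fold change was -0.05 ± 0.10 for UFD1 (interval -0.26 to 0.16, edgeR adjusted p = 0.805). For NPLOC4 it was -0.02 ± 0.09 (interval -0.21 to 0.17, edgeR adjusted p = 0.935).

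Whether the ATPase and its adaptor changed unequally was tested on the log2 ratio of VCP to UFD1. The ratio was 3.19 ± 0.21 with tunicamycin and 2.84 ± 0.14 with DMSO (SD, n = 6 each). The difference of 0.34 had an exact within-batch permutation p of 0.01, or 0.0167 adjusted over the 5 ratios, and 0.0521 adjusted with signs flipped over pairs. It was 0.29 in batch 1, 0.40 in batch 2 and positive in 6 of 6 pairs. The ratio of UFD1 to NPLOC4 differed by -0.03 on the log2 scale, with an exact permutation p of 0.765, and 3 of 6 pairs lay on each side. That difference was smaller than the SD of the ratio in either group, 0.20 with tunicamycin and 0.17 with DMSO.

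**Figure D2:**
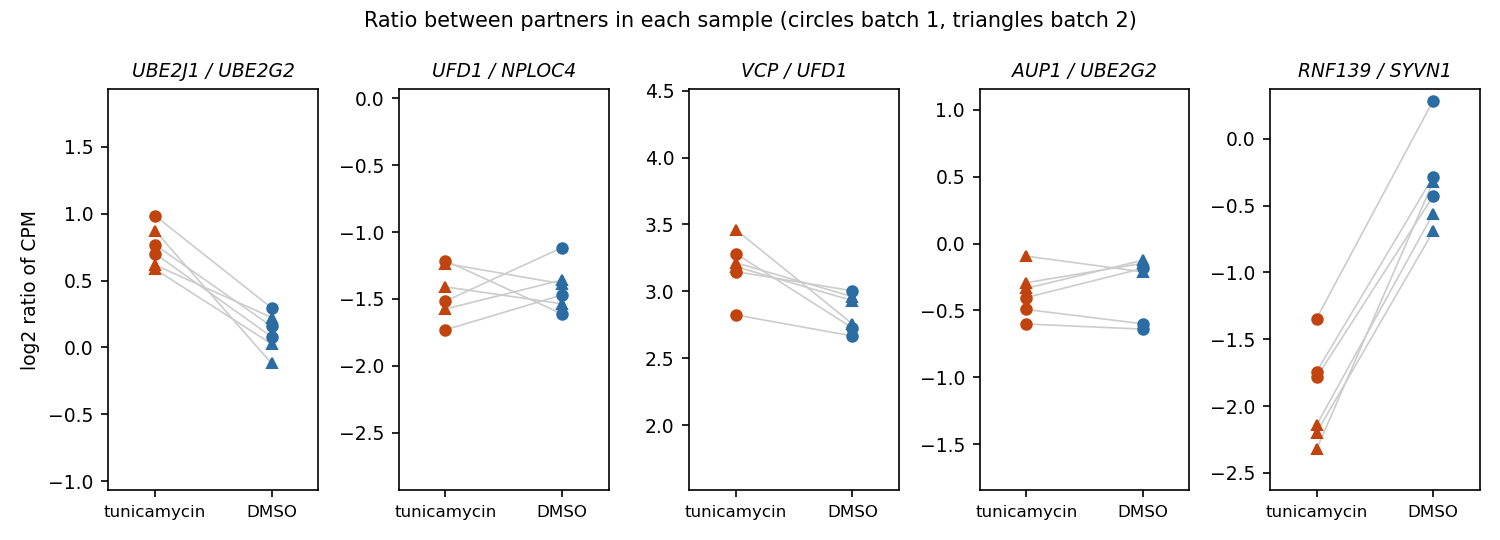
Log2 ratio of CPM between partner genes in each sample (vertical axis, the same span of units in each panel) for 6 tunicamycin and 6 DMSO samples; circles are batch 1, triangles batch 2, and lines join samples of the same number. UBE2J1 to UBE2G2 and VCP to UFD1 are higher with tunicamycin in 6 of 6 pairs, RNF139 to SYVN1 is lower in 6 of 6, and the lines of UFD1 to NPLOC4 and AUP1 to UBE2G2 cross.

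FAF2 (chromosome 5, 176447628 to 176510074, plus strand), also called UBXD8, is a membrane adaptor that brings VCP to the ER and to lipid droplets. FAF2 ranged from 79.9 to 96.6 CPM with tunicamycin, median 91.9 CPM, and from 65.1 to 87.0 CPM with DMSO, median 77.9 CPM. In the tunicamycin group 5 samples lay above the highest DMSO sample, and tunicamycin 3 lay within the DMSO range. The group means were 90.7 ± 5.96 CPM with tunicamycin and 76.6 ± 9.22 CPM with DMSO (SD, n = 6 each). Its log2 fold change was 0.24 ± 0.10 (interval 0.04 to 0.45), with an edgeR adjusted p of 0.146 with batch and 0.0340 with the replicate block. All 6 pairs were higher with tunicamycin, and the log2 fold change was 0.23 in batch 1 and 0.27 in batch 2. After group and batch means were subtracted, FAF2 and VCP varied together over the 12 samples (Pearson r of 0.71, a description over samples that share number, depth and cell makeup).

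VCP works with many cofactors, and the list of 31, all tested, includes UFD1, NPLOC4, FAF2 and NGLY1. In it 4 were called higher and 0 lower, with a median log2 fold change of 0.11. All 4 calls were among the 27 genes other than those named. With the replicate block 8 were called higher, FAF2 among them. SELENOS, an ER-membrane selenoprotein that recruits VCP to the HRD1 complex, averaged 88.2 ± 8.67 CPM with tunicamycin and 36.8 ± 9.11 CPM with DMSO, a log2 fold change of 1.27 ± 0.13 (edgeR adjusted p = 4.4e-05). UBXN10, a UBX-domain cofactor known for cilia, averaged 12.2 ± 2.85 CPM with tunicamycin and 5.84 ± 1.22 CPM with DMSO, a log2 fold change of 1.07 ± 0.19 (edgeR adjusted p = 0.0035). ZFAND2A, a stress-inducible zinc finger protein of the proteasome, averaged 33.4 ± 4.91 CPM with tunicamycin and 18.5 ± 2.46 CPM with DMSO, a log2 fold change of 0.85 ± 0.10 (edgeR adjusted p = 0.00017). The remaining call, ZFAND1, which acts on stress granules and is named after its values were seen, had a log2 fold change of 0.68 ± 0.14 (edgeR adjusted p = 0.0102). All 4 were higher with tunicamycin in 6 of 6 pairs, whereas the heterodimer UFD1 and NPLOC4, in the same list, was not called.

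**Figure D3:**
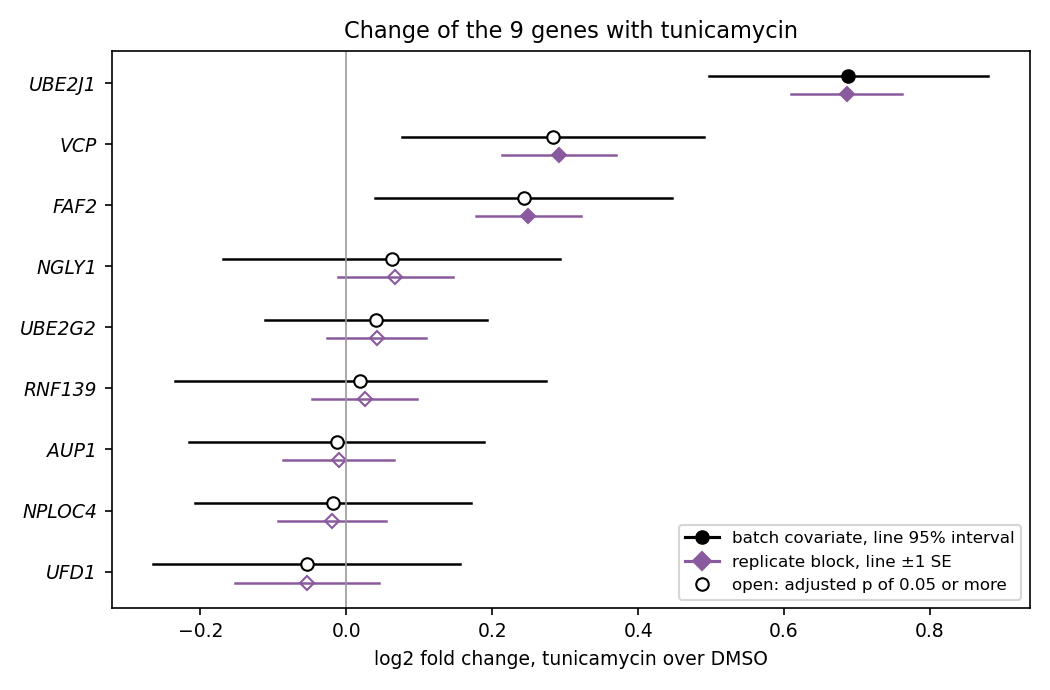
Log2 fold change of the 9 genes, tunicamycin over DMSO (horizontal axis): black circles are the fit with batch and lines its 95% interval, purple diamonds the fit with the replicate block and lines 1 SE; filled symbols have an adjusted p under 0.05. UBE2J1 is filled in both fits at 0.69, VCP at 0.28 and FAF2 at 0.24 are filled with the block alone, and the intervals of the other 6 genes span 0.

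The plot of log2 fold changes shows that the intervals of the 6 remaining genes all spanned 0. Their upper bounds were 0.16 for UFD1, 0.17 for NPLOC4, 0.19 for UBE2G2 and for AUP1, 0.27 for RNF139 and 0.29 for NGLY1. Each lies below the lower bound of 0.50 for UBE2J1, although the intervals of RNF139 and NGLY1 were the widest of the 9. No treatment by batch interaction was called by edgeR for any of the 17137 genes, with or without the replicate block, and 169 genes (0.986%) had an unadjusted interaction p under 0.05, among them 0 of the 9. That share is smaller than the cut of 0.05 would give by chance. With 3 samples a group in each batch, the absence of calls does not show that the batches responded alike.

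Scaled by exon length, VCP was the most abundant transcript of the 9, at 96.7 ± 12.02 CPM per kb with tunicamycin and 79.2 ± 11.01 CPM per kb with DMSO (SD, n = 6 each). NGLY1 was the least abundant, at 12.4 ± 1.78 CPM per kb with tunicamycin and 11.9 ± 1.71 CPM per kb with DMSO. On this scale the level of VCP was 3.78 times that of UFD1 with tunicamycin and 2.98 times with DMSO, and against NPLOC4 it was 6.44 times with tunicamycin and 5.20 times with DMSO. The multiples and the order of genes depend on the exon lengths, here of GENCODE basic transcripts. UFD1 has 1814 exon bases in these and 8736 over all transcripts, and NPLOC4 has 8414 and 9574. UBE2J1 averaged 41.6 ± 4.34 CPM per kb with tunicamycin, and with DMSO 25.9 ± 3.08 CPM per kb. In DMSO samples that level was close to UBE2G2 (27.9 ± 1.67 CPM per kb), UFD1 (26.5 ± 3.16 CPM per kb) and RNF139 (23.7 ± 4.68 CPM per kb), neighbours in the order that did not differ beyond their spread. With tunicamycin UBE2J1 stood above those 3 genes. The ratio of UBE2J1 to UBE2G2 in mean CPM per kb was 1.45 with tunicamycin and 0.930 with DMSO.

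**Figure D4:**
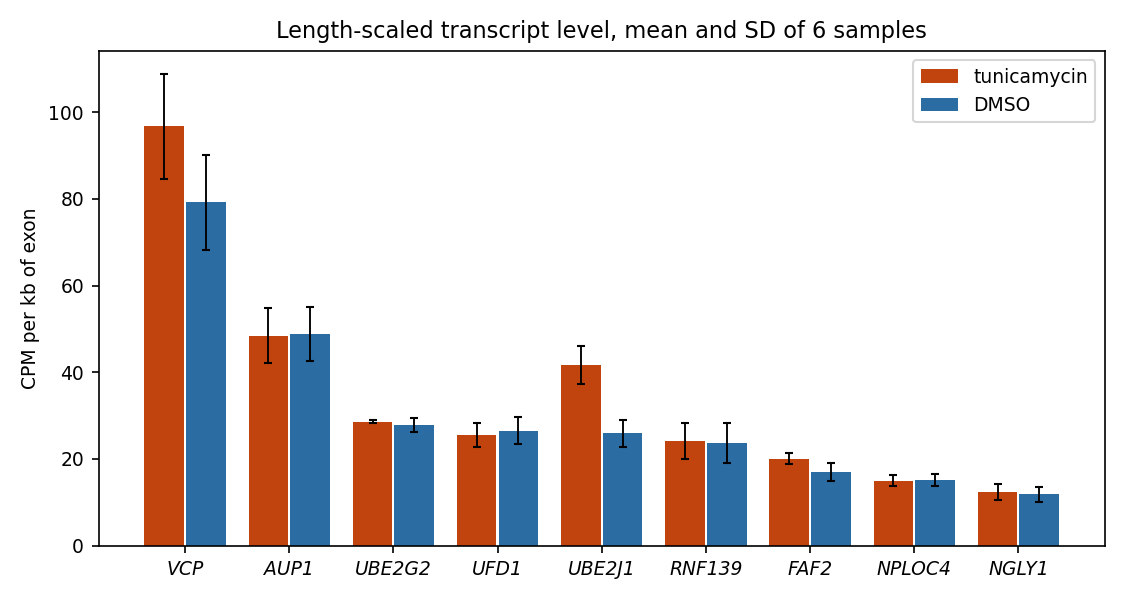
Mean level of the 9 genes in CPM per kb of exon (vertical axis, from 0) with tunicamycin (left bar of each pair) and DMSO (right bar); error bars are the SD of 6 samples, and exon lengths are from GENCODE release 29 basic transcripts. VCP is highest in both groups, at 96.7 CPM per kb with tunicamycin and 79.2 with DMSO, and UBE2J1 moves above UBE2G2, UFD1 and RNF139 with tunicamycin.

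AUP1 (chromosome 2, 74526645 to 74529939, minus strand) is a lipid droplet and ER protein that recruits UBE2G2 through a dedicated binding region. AUP1 ranged from 69.7 to 101 CPM with tunicamycin, median 81.9 CPM, and from 69.8 to 94.0 CPM with DMSO, median 85.1 CPM. The groups overlapped almost entirely, and 2 of 6 pairs were higher with tunicamycin. Its log2 fold change was -0.01 ± 0.09 (interval -0.21 to 0.19, edgeR adjusted p = 0.955). The log2 ratio of AUP1 to UBE2G2 was -0.37 ± 0.18 with tunicamycin and -0.32 ± 0.24 with DMSO, a difference of -0.05 with an exact permutation p of 0.565 (n = 6 each). In GENCODE release 29, 483 of the 1695 exon bases of AUP1 are shared with HTRA2, a mitochondrial protease gene on the opposite strand. HTRA2 averaged 27.1 CPM in each group, and since the strand setting of the counting is not given, reads of the shared part cannot be told apart.

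NGLY1 (chromosome 3, 25718944 to 25790039, minus strand) is the cytosolic N-glycanase that removes N-glycans from extracted proteins, the modification whose synthesis tunicamycin blocks. NGLY1 ranged from 30.4 to 45.5 CPM with tunicamycin, median 35.9 CPM, and from 29.6 to 43.4 CPM with DMSO, median 34.2 CPM. The ranges nearly coincided, and 5 of 6 pairs were higher with tunicamycin. Its log2 fold change was 0.06 ± 0.11 (interval -0.17 to 0.29, edgeR adjusted p = 0.794), with 0.14 in batch 1 and -0.002 in batch 2.

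NGLY1 also processes the transcription factor NRF1, encoded by NFE2L1, which drives proteasome genes. Of the 6 genes listed for cytosolic glycan release and NRF1 processing, all tested, 2 were called higher and 0 lower. NFE2L1 averaged 479 ± 101 CPM with tunicamycin and 309 ± 74.1 CPM with DMSO, a log2 fold change of 0.63 ± 0.17 (edgeR adjusted p = 0.0362). ENGASE, a cytosolic endoglycosidase that trims free glycans, averaged 94.4 ± 5.12 CPM with tunicamycin and 75.2 ± 9.0 CPM with DMSO, a log2 fold change of 0.33 ± 0.09 (edgeR adjusted p = 0.0439). The count of 2 fell to 0 without tunicamycin 2, 4, 5 or 6 or without DMSO 1 or 5, and to 1 without tunicamycin 1, without DMSO 3, 4 or 6 or with the mesenchymal marker covariate.

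RNF139 (chromosome 8, 124474738 to 124487914, plus strand), also called TRC8, is an ER-membrane ubiquitin ligase known for sterol-regulated degradation. RNF139 ranged from 52.2 to 84.0 CPM with tunicamycin, median 61.3 CPM, and from 54.4 to 87.1 CPM with DMSO, median 57.5 CPM. The highest sample of each group was the one numbered 2, and the other 10 samples lay between 52.2 and 64.2 CPM. Its log2 fold change was 0.02 ± 0.12 (interval -0.23 to 0.27, edgeR adjusted p = 0.947). It was -0.05 without tunicamycin 2 and 0.11 without DMSO 2, and neither value was called.

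The ligases of the ER membrane did not move as 1 group: of 20 in the list, all tested, 4 were called higher and 2 lower, with a median log2 fold change of 0.19. SYVN1, which encodes HRD1, the ligase that UBE2J1 serves, averaged 240 ± 29.5 CPM with tunicamycin and 78.1 ± 8.34 CPM with DMSO, a log2 fold change of 1.61 ± 0.08 (edgeR adjusted p = 8.2e-08). RNF13, a ligase of endosomal and ER membranes, averaged 73.0 ± 9.93 CPM with tunicamycin and 46.5 ± 4.44 CPM with DMSO, a log2 fold change of 0.65 ± 0.10 (edgeR adjusted p = 0.00096). RNF26, which organises endosomes around the nucleus, averaged 65.5 ± 15.6 CPM with tunicamycin and 44.2 ± 8.01 CPM with DMSO, a log2 fold change of 0.56 ± 0.15 (edgeR adjusted p = 0.0401). The other calls, named after their values were seen, were RNF103 (higher), RNF145 and TRIM13 (both lower). Only 2 were called higher without tunicamycin 4, and 1 was called lower when any 1 of tunicamycin 2 to 6 or DMSO 1, 4 or 5 was left out. With the mesenchymal marker covariate 2 were called higher and 1 lower.

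The log2 ratio of RNF139 to SYVN1 was -1.92 ± 0.37 with tunicamycin and -0.33 ± 0.34 with DMSO (SD, n = 6 each). The ratio was lower with tunicamycin in 6 of 6 pairs, and the samples did not overlap. The difference of -1.59 had an exact within-batch permutation p of 0.005, the smallest possible, or 0.0125 adjusted over the 5 ratios, and 0.0521 adjusted with signs flipped over pairs. It was -1.48 in batch 1 and -1.70 in batch 2. With RNF139 at a log2 fold change of 0.02 and SYVN1 at 1.61, the ratio mainly restates the rise of SYVN1.

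Of the HRD1 complex and the lectins that deliver glycoproteins to it, 13 of 14 genes were tested, and 9 were called higher and 0 lower, with a median log2 fold change of 0.86. DERL3 did not pass the filter on low counts. HERPUD1, an ER-membrane scaffold of the complex, averaged 324 ± 41.0 CPM with tunicamycin and 66.6 ± 6.78 CPM with DMSO, a log2 fold change of 2.28 ± 0.11 (edgeR adjusted p = 5.9e-08). SEL1L, the partner that stabilises HRD1, averaged 572 ± 94.7 CPM with tunicamycin and 144 ± 23.9 CPM with DMSO, a log2 fold change of 1.99 ± 0.13 (edgeR adjusted p = 7.8e-07). SYVN1 and SELENOS, given above, belong to this list too. Some of these genes are textbook targets of the unfolded protein response, so the list is not independent of the check of the treatment.

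**Figure D5:**
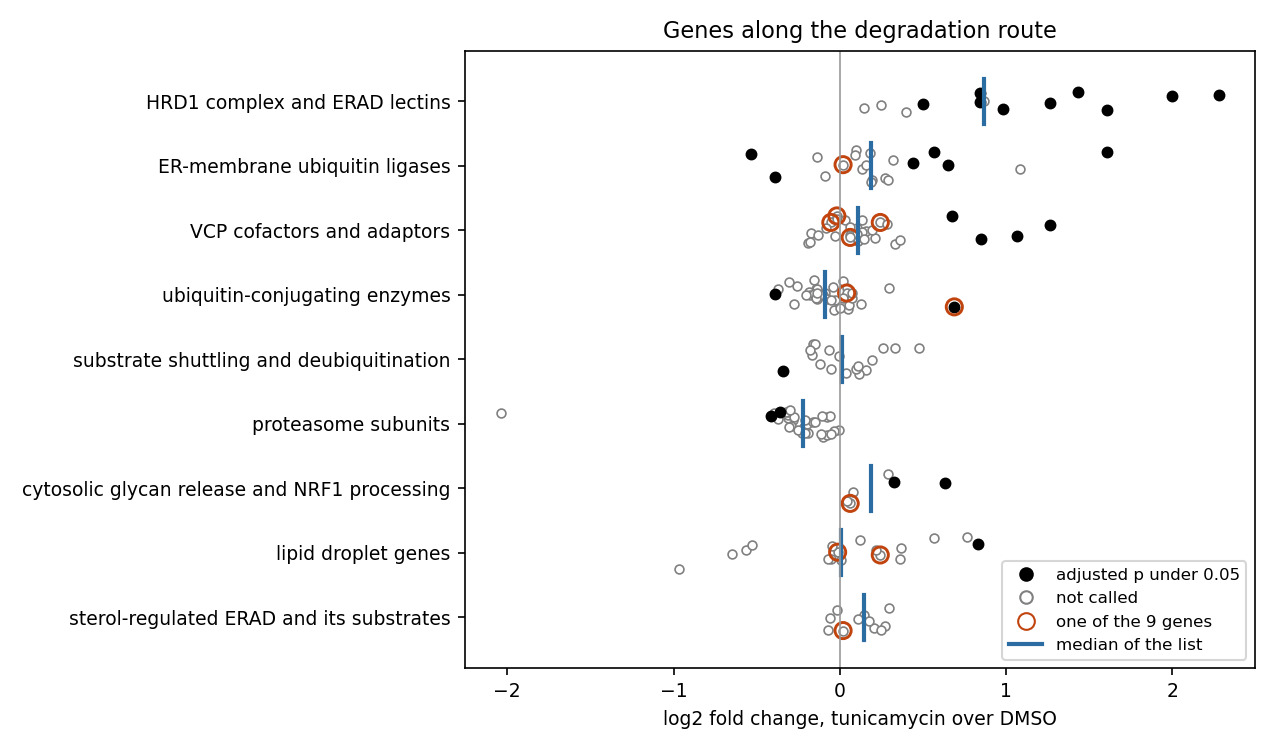
Log2 fold change, tunicamycin over DMSO (horizontal axis), of every tested gene in 9 lists along the degradation route: filled points have an adjusted p under 0.05, open grey points do not, orange rings mark the 9 genes, and blue bars are list medians. The HRD1 list has its median at 0.86 and 9 of 13 genes filled, and UBE2J1 is the single ringed gene that is filled.

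Downstream of VCP, shuttling factors and the proteasome were examined. Of 18 genes of substrate shuttling and deubiquitination, all tested, 0 were called higher and 1 lower, with a median log2 fold change of 0.02. OTUB1, a deubiquitinase that also restrains conjugating enzymes, averaged 152 ± 21.5 CPM with tunicamycin and 191 ± 17.7 CPM with DMSO, a log2 fold change of -0.34 ± 0.08 (edgeR adjusted p = 0.0237). Its call was lost without tunicamycin 1, 4 or 5 or without DMSO 1, and also with no batch term, with the mesenchymal marker covariate and in either batch alone.

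Of 32 proteasome subunits, all tested, 0 were called higher and 2 lower, with a median log2 fold change of -0.22, where all genes had -0.01. At an unadjusted edgeR p under 0.05, 18 were lower and 0 higher. Of all 17137 genes tested, at least 2686 passed that cut in either direction. PSMA4, a subunit of the catalytic core, averaged 75.1 ± 7.77 CPM with tunicamycin and 99.8 ± 12.7 CPM with DMSO, a log2 fold change of -0.41 ± 0.10 (edgeR adjusted p = 0.0214). PSMD1, a scaffold of the regulatory cap, averaged 85.5 ± 7.04 CPM with tunicamycin and 110 ± 17.0 CPM with DMSO, a log2 fold change of -0.36 ± 0.10 (edgeR adjusted p = 0.0487). The number called lower was 10 with the replicate block, where 8.4% of all genes were called lower, 8 with DESeq2, 1 with the mesenchymal marker covariate and 0 in either batch alone. It was 5 without DMSO 3, 0 without tunicamycin 5, and 1 without tunicamycin 1, 3, 4 or 6 or without DMSO 1, 2, 4 or 5.

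Apart from treatment and batch, the 9 genes did not vary as a unit. Residual levels were positively correlated in 25 of 36 gene pairs over the 12 samples, with a median r of 0.13. The highest r, 0.86, was between UBE2J1 and RNF139, and the lowest, -0.78, between NPLOC4 and AUP1. The 3 genes whose residual pattern was most like that of VCP, among 11378 candidates, were WDR1 (r = 0.95), an actin-disassembly factor, RUVBL1 (r = 0.95), an AAA ATPase of chromatin and assembly complexes, and CHST11 (r = 0.95), a chondroitin sulfotransferase. For UBE2J1 they were THAP5 (r = 0.96), a zinc finger protein, RFK (r = 0.96), riboflavin kinase, and DNAJB4 (r = 0.96), a heat shock co-chaperone. Of these 6 genes, THAP5 was called higher, at 49.5 CPM with tunicamycin and 33.2 CPM with DMSO, a log2 fold change of 0.58 and an edgeR adjusted p of 0.0033. These correlations describe 12 samples that share batches and numbers.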

How the data were processed

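The authors' deposited table holds raw counts, whole numbers per gene symbol with no normalization, for 12 samples. Every column was used, so 0 columns were left out. HISAT2 2.1.0, featureCounts 2.0.6 and cutadapt 4.4, with the build GRCh38, are named per the submitters' processing notes. For genes that overlap an antisense gene or have a near-identical copy the counts are uncertain, since annotation and strand setting are not given in the sources used.

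The filterByExpr filter of edgeR 4.0.16, run in R 4.3.3, left 17137 genes and removed 11141. CPM used TMM-scaled library sizes. Groups were compared with the quasi-likelihood test of edgeR, batch in the model, Benjamini-Hochberg adjustment over all genes and a threshold of 0.05. The interaction of treatment and batch was tested in the same way. Log2 ratios between partner genes used a prior count of 0.5 and two-sided exact permutation within batches. All 5 ratios were adjusted together. The edgeR tests of treatment and of interaction, with batch in the model, were checked on simulated counts drawn independently for each sample. The ratio tests, the block fit, DESeq2 and limma-voom were not. Within groups, the chi-square per gene between samples was 10.9 to 99.6, above sampling noise, so none was merged.

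The numbers were taken to pair the samples. Same-numbered samples' deviations from the group and batch means correlated at 0.483, 0.539, 0.475, 0.113, 0.170 and 0.175 across genes for numbers 1 to 6. Correlations with other numbers reached at most 0.266, and for number 4 (0.167) and number 5 (0.266) they exceeded the same-numbered value. With group means alone subtracted, number 6 had 0.105 with its partner and up to 0.154 with another number. What a number marks is not stated in the labels. Blocked values stand beside some results whose call or count depends on the block. Elsewhere the block fit called higher 12 genes of the HRD1 list, 5 ER-membrane ligases, 3 of glycan release and 1 of shuttling. Of the markers it called lower 2 for alpha cells, 6 ductal and acinar, and 5 liver and gut. In that fit 8.92% of all genes were called higher and 8.4% lower.

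The members and lists were chosen with earlier results of these data known. The text names the 9 genes and, from each list, up to 3 other called genes (mean log2 CPM at least 1) by size of change, or the 2 most abundant where none was called. It adds HSPA5 and, for VCP and UBE2J1, the 3 genes with the most similar residual pattern among those with a mean log2 CPM of at least 3. A gene in several lists counts in each. Some genes that the rule selects are not reported here. Alternatives were the replicate block, no batch term, other size factors, other filters, DESeq2 1.42.0, limma-voom (limma 3.58.1), each sample left out, each batch alone and a mesenchymal marker covariate. Positions and exon lengths are from GENCODE 29 and promoters from RefSeq GRCh38.p14.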

Additional observations from a re-analysis of the deposited data

Results flagged for a closer look

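RNF139 was at 87.1 CPM in DMSO 2, apart from the other DMSO samples, which lay between 54.4 and 62.9 CPM. The gap to the next sample was 0.742 of the group's range, above Dixon's 95% critical value for 6 samples. Both groups of all 9 genes, 18 in all, were examined in this way, and chance flags about 1 in 20. Tunicamycin 2 had 84.0 CPM of RNF139, the highest of its group. Without DMSO 2 the log2 fold change of RNF139 was 0.11 and was not called.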

How the results depend on the processing

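Over 22 alternatives the log2 fold change of UBE2J1 ran from 0.61 to 0.75, and its call was lost in batch 1 alone (edgeR adjusted p = 0.243). Leaving out 1 sample at a time gave it 0.65 to 0.73, with edgeR adjusted p of 0.00032 to 0.0014. That of VCP ran from 0.23 to 0.34 and that of FAF2 from 0.19 to 0.29. The count of the 9 genes called higher was 3 with the replicate block, 2 with DESeq2, 0 in batch 1 alone and 1 to 2 with 1 sample left out (2 without DMSO 2). It was 0 for lower throughout. Over all genes, 2967 were called with the replicate block (1528 higher, 1439 lower), 2037 with DESeq2 (982 lower), 57 in batch 1 alone (51 higher, 6 lower), 654 in batch 2 alone (449 higher, 205 lower) and 891 with the mesenchymal covariate (315 lower). The block kept all 1344 calls in the same direction and, of the 9 genes, changed the calls of VCP and FAF2 alone. With 1 sample left out 791 to 1399 genes were called, 514 to 845 higher and 277 to 603 lower; without tunicamycin 4 the count was 791, and the lower calls fell to 355 without DMSO 1, 344 without DMSO 5 and 332 without tunicamycin 5.

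Signs changed only for genes not called: NPLOC4 was 0.065 and UBE2G2 -0.0048 in batch 1, AUP1 0.024 and NGLY1 -0.0022 in batch 2, and with the mesenchymal covariate AUP1 was 0.052, NGLY1 -0.079 and RNF139 -0.17. With 1 sample left out they ran from -0.078 to 0.011 for NPLOC4, -0.058 to 0.055 for AUP1, -0.0015 to 0.12 for NGLY1 and -0.051 to 0.11 for RNF139. The ratio of UFD1 to NPLOC4 then differed by -0.10 to 0.037 and that of AUP1 to UBE2G2 by -0.093 to 0.021. Paired by number with signs flipped, the ratio differences of 0.645 (UBE2J1 to UBE2G2), 0.345 (VCP to UFD1) and -1.59 (RNF139 to SYVN1) each had an adjusted exact permutation p of 0.0521, and 64 arrangements allow no p below 0.0312. The cause of each of these changes was not tested. The batch and left-out fits also had fewer samples. Counts of 627 or more per gene make counting error small beside the spread between samples, except for UBE2G2 with tunicamycin.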

Other observations

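AUP1 and FAF2 also act at lipid droplets. Of 17 lipid droplet genes, all tested, 1 was called higher and 0 lower, with a median log2 fold change of 0.004. HSD17B11, a droplet-associated dehydrogenase, averaged 73.4 ± 14.2 CPM with tunicamycin and 41.2 ± 7.73 CPM with DMSO, a log2 fold change of 0.83 ± 0.14 (edgeR adjusted p = 0.0027). With the replicate block 3 genes were called higher and 4 lower. The 4 lower ones, named after their values were seen, were the droplet coat genes PLIN2 and PLIN3, the triglyceride synthase gene DGAT2 and METTL7A, each lower with tunicamycin in 6 of 6 pairs. Without the block their edgeR adjusted p was 0.0801 for PLIN2, 0.0605 for PLIN3, 0.0547 for DGAT2 and 0.111 for METTL7A. Without the block, 3 were called lower when tunicamycin 2 was left out and 2 when DMSO 6 was, and 2 were called higher when tunicamycin 1 was left out.

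Of 11 genes of sterol-regulated ERAD and its substrates, RNF139 among them, all tested, edgeR called 0 in either direction, with a median log2 fold change of 0.15. DESeq2 and limma-voom called 0 as well. At an unadjusted edgeR p under 0.05, 1 was higher, and 1 was called higher with the replicate block and 1 without DMSO 5. The sterol regulator SREBF2 averaged 462 ± 66.2 CPM with tunicamycin and 403 ± 76.1 CPM with DMSO, a log2 fold change of 0.21 ± 0.13 (edgeR adjusted p = 0.401).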
